A study of Mus musculus with 18 samples.

Results

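Atf4, Atf5, Ddit3, Trib3, Chac1, Asns, Psat1, Phgdh, Sesn2 and Cebpb are genes of the integrated stress response that ATF4 controls or acts with. These 10 genes were chosen by name for their known place in this pathway, at a time when earlier results of these data were known. All 10 had a row among the 13104 genes measured in mouse embryonic stem cells (ESCs) and among the 13717 genes measured in epiblast-like cells (EpiLCs). The libraries came from BVSC cells, mouse ESCs that carry Blimp1::mVenus and Stella::ECFP reporters, and the study asked what the cannabinoid Δ9-tetrahydrocannabinol (Δ9-THC) does to early embryonic cell types. ESCs were kept naive in 2i+LIF medium, and EpiLCs were made from them with activin A and bFGF. Each cell type received either ethanol vehicle or Δ9-THC at 100 nM, with 3 libraries per group and 12 in all, and the methods describe the exposure as continuous through both stages. The study used a female BVSC clone and, for some experiments, a male one. It describes its data on ESC proliferation as coming from female cells, and the labels name no clone for the libraries. Whether all libraries came from the same clone is therefore not known. The 6 libraries of primordial germ cell-like cells were not analysed here.

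In the integrated stress response, the kinases GCN2, PERK, PKR and HRI sense missing amino acids, misfolded protein, double-stranded RNA or lack of heme, and phosphorylate the translation factor eIF2α. General translation then slows while the mRNA of the transcription factor ATF4 is translated more, because short upstream reading frames in its leader normally hold it back. ATF4 pairs with C/EBP proteins on composite sites near its targets, which include enzymes that make amino acids, amino acid transporters, tRNA synthetases and the regulators CHOP, TRIB3 and SESN2. As Atf4 is controlled largely at translation, its mRNA level is not a measure of ATF4 protein.

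The composite site has the core TGATGNAA, and it was searched on both strands from 250 bases before to 50 bases after each RefSeq transcription start (GRCm38.p6). All 10 members had such a window, and Asns, Chac1 and Trib3 held the core, against 4.51% of 27025 genes with a window. Below are those 3 stretches, followed by those of 3 pathway genes named later in the text, Atf3, Yars and Pck2, read 5′ to 3′ along the gene's own strand, with the core in capitals. A core in reverse orientation reads TTNCATCA.
Asns (chr6:7693210-7693289, minus strand): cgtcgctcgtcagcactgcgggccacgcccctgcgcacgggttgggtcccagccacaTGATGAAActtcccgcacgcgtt
Chac1 (chr2:119351013-119351092, plus strand): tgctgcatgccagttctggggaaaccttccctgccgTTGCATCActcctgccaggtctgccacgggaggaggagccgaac
Trib3 (chr2:152344028-152344057, minus strand): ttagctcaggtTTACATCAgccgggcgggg
Atf3 (chr1:191183425-191183454, minus strand): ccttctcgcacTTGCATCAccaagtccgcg
Yars (chr4:129189895-129189924, plus strand): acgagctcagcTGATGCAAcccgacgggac
Pck2 (chr14:55540152-55540181, plus strand): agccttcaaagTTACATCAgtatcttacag
The Asns core lies 23 to 16 bases before the start, the Chac1 core 193 to 186 bases before it, and the Trib3 core at bases 15 to 22 of the transcript. Among the pathway lists described below, the core was found in 5 of 8 tRNA charging genes with a window, in 5 of 16 other stress targets and in 0 of 19 genes of the IRE1 and ATF6 arms. A match is a run of letters and not a measured binding site, and its absence says nothing of sites outside this window.

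The deposited tables held whole-number counts that had been adjusted for batch, in each cell type on its own, with totals of 23427551 to 32096698 per library. The labelled cell types carried their markers. The 8 naive genes, such as Nanog, Esrrb and Zfp42, summed to 4286 to 4650.2 CPM in ESCs (counts relative to the TMM-scaled library size) and to 309 to 365 CPM in EpiLCs. Of 8 formative genes all were listed in EpiLCs, at a summed 1764 to 2115 CPM, and 6 in ESCs, at 157 to 176 CPM, where Fgf5 and Fgf15 had no row. Primitive endoderm, streak, feeder and 2-cell-like genes each summed to at most 18.1 CPM in any library, and neuroectoderm genes, which include Nes and Tubb3, to 82.3 to 103 CPM in ESCs and 114 to 149 CPM in EpiLCs.

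Vehicle-treated ESCs and EpiLCs held all 10 transcripts, and the enzymes and Atf4 itself led in both. Per kb of exonic length, Asns, which makes asparagine, was highest in ESCs at 486 ± 25.4 CPM per kb (SD, n = 3). Atf4 followed at 216 ± 6.45, Psat1 at 196 ± 7.48 and Phgdh at 120 ± 1.51 CPM per kb, the last being the enzymes of the second and the first step of serine synthesis. These 4 levels did not overlap between neighbours in the order. Sesn2 at 39.5 ± 2.73 overlapped Trib3 at 38.8 ± 4.05, and Trib3 overlapped Atf5 at 33.5 ± 6.16 CPM per kb. Chac1 at 22.98 ± 2.57, Ddit3 at 6.65 ± 0.817 and Cebpb at 3.29 ± 0.553 CPM per kb came last, each apart from the one above it.

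In vehicle-treated EpiLCs the order began with Atf4 at 303 ± 22.97 CPM per kb. Asns at 158 ± 18.1, Psat1 at 155 ± 21.8 and Phgdh at 138 ± 23.9 CPM per kb overlapped one another, and Trib3, Chac1, Sesn2, Atf5, Ddit3 and Cebpb followed in that order, from 50.8 CPM per kb downward, without overlap between neighbours. Asns was 3.08-fold lower in EpiLCs than in ESCs (log2 ratio −1.62). By contrast Chac1, a glutathione-degrading enzyme, stood 1.79-fold higher (log2 ratio 0.84), Atf4 1.40-fold higher (0.49) and Trib3 1.31-fold higher (0.39). Vehicle libraries of the cell types did not overlap for 8 of the 10 genes, Ddit3 and Cebpb being the exceptions. The share of all genes without overlap was not counted, so this is not a result about the members as a set. With the Δ9-THC libraries added, EpiLCs remained above ESCs for Atf4, Trib3 and Chac1 and below for Asns and Psat1. No test was made between cell types because their tables were adjusted separately.

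**Figure D1:**
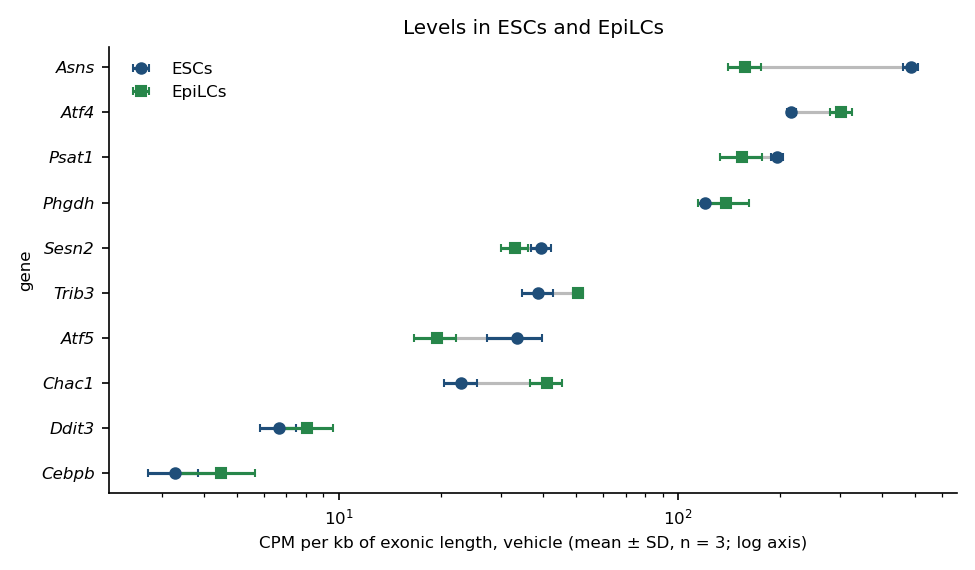
Level of each gene in vehicle-treated ESCs (circles) and EpiLCs (squares), as TMM-scaled CPM per kb of exonic length on a log axis, with points at the mean and bars at the SD of 3 libraries. Asns shows the widest gap, from 486 CPM per kb in ESCs to 158 in EpiLCs, while Chac1 and Atf4 lie higher in EpiLCs.

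Next, Δ9-THC-exposed ESCs were compared with vehicle-treated ESCs. The fitted log2(fold-change) was below 0 for 10 of the 10 genes, against 48.9% of all 13104 genes, and its median over them was −0.27, against 0.0041 over all genes. Of the 10, only Phgdh passed the edgeR quasi-likelihood test (adjusted p ≤ 0.05), against 6.91% of all genes, 3.55% of them lower. The unadjusted p was under 0.05 for 7 of the 10, all lower, against 13.8% of all genes. Libraries did not overlap for Ddit3, Trib3, Chac1, Phgdh, Sesn2 and Cebpb, 6 of the 10, against 15.9% of all genes in that direction. A log2(fold-change) below −0.25 was fitted for 6 of the 10, against 7.46% of all genes.

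The Atf4 gene (chr15:80255184-80257541, GRCm38) gave 492, 519 and 517 CPM in vehicle replicates 1 to 3 and 503, 478 and 482 CPM in the Δ9-THC replicates. These ranges overlapped, and the change was small (log2(fold-change) −0.063 ± 0.035 SE, edgeR adjusted p = 0.277). Atf5, a sister factor that is likewise held back by upstream reading frames, gave 53.7, 78.1 and 68.4 CPM with vehicle and 59.2, 38.9 and 47.1 CPM with Δ9-THC. Its libraries also overlapped (−0.46 ± 0.18, edgeR adjusted p = 0.158), and the spread within each group was wide. Cebpb, a C/EBP partner of ATF4, was the scarcest member, with 3.99, 5.51 and 5.33 CPM in vehicle libraries and 3.77, 2.48 and 2.56 CPM in exposed ones. All exposed libraries lay below all vehicle libraries, with the largest fitted change of the 10 (−0.75 ± 0.20, edgeR adjusted p = 0.0666), on as few as 61 counts in one library. Its single exon (chr2:167688915-167690418) shares 20.7% of its bases with Tmem189, and reads were counted without strand.

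Among the stress effectors, Ddit3, the gene of the pro-apoptotic factor CHOP, gave 10.05, 12.8 and 11.3 CPM with vehicle and 9.80, 7.39 and 8.68 CPM with Δ9-THC. Exposed libraries lay below the vehicle ones by a narrow margin (log2(fold-change) −0.41 ± 0.13 SE, edgeR adjusted p = 0.101), and 10.9% of its exonic bases are shared with other gene records, among them Mars. Trib3, a pseudokinase that holds back ATF4 and CHOP in a feedback loop, gave 74.5, 91.6 and 81.0 CPM against 73.2, 58.6 and 68.01 CPM. Again the groups were separate but close at their edges (−0.31 ± 0.10, edgeR adjusted p = 0.110). Chac1 gave 35.4, 42.5 and 35.002 CPM with vehicle and 33.0, 26.9 and 33.5 CPM after exposure (−0.28 ± 0.11, edgeR adjusted p = 0.160). Sesn2, a leucine sensor that restrains mTORC1, gave 132, 148 and 132 CPM with vehicle. Exposed libraries gave 119, 105 and 119.6 CPM, all of them lower (−0.27 ± 0.069, edgeR adjusted p = 0.0640).

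Among the biosynthetic enzymes, Phgdh, which commits glycolytic 3-phosphoglycerate to serine, gave 295, 296 and 302 CPM with vehicle and 278, 277 and 273 CPM with Δ9-THC. Relative to its mean it was the tightest of the 10 within groups, and it fell by 7.25% (log2(fold-change) −0.11 ± 0.024 SE, edgeR adjusted p = 0.0489). The call was lost with DESeq2 (adjusted p = 0.0810) and when any library or replicate pair was left out (edgeR adjusted p = 0.0523 to 0.171). Psat1, the next enzyme of the same pathway, gave 796, 852 and 851 CPM against 860.0, 806 and 811 CPM, with no order between the groups (−0.013 ± 0.041, edgeR adjusted p = 0.870). Asns gave 1251, 1381 and 1358 CPM against 1340.0, 1215 and 1245 CPM, which overlapped too (−0.070 ± 0.053, edgeR adjusted p = 0.428). DESeq2 called 3 of the 10 in ESCs, all lower, with adjusted p-values of 0.0224 for Trib3, 0.00969 for Sesn2 and 0.0224 for Cebpb, against 5.79% of all genes.

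**Figure D2:**
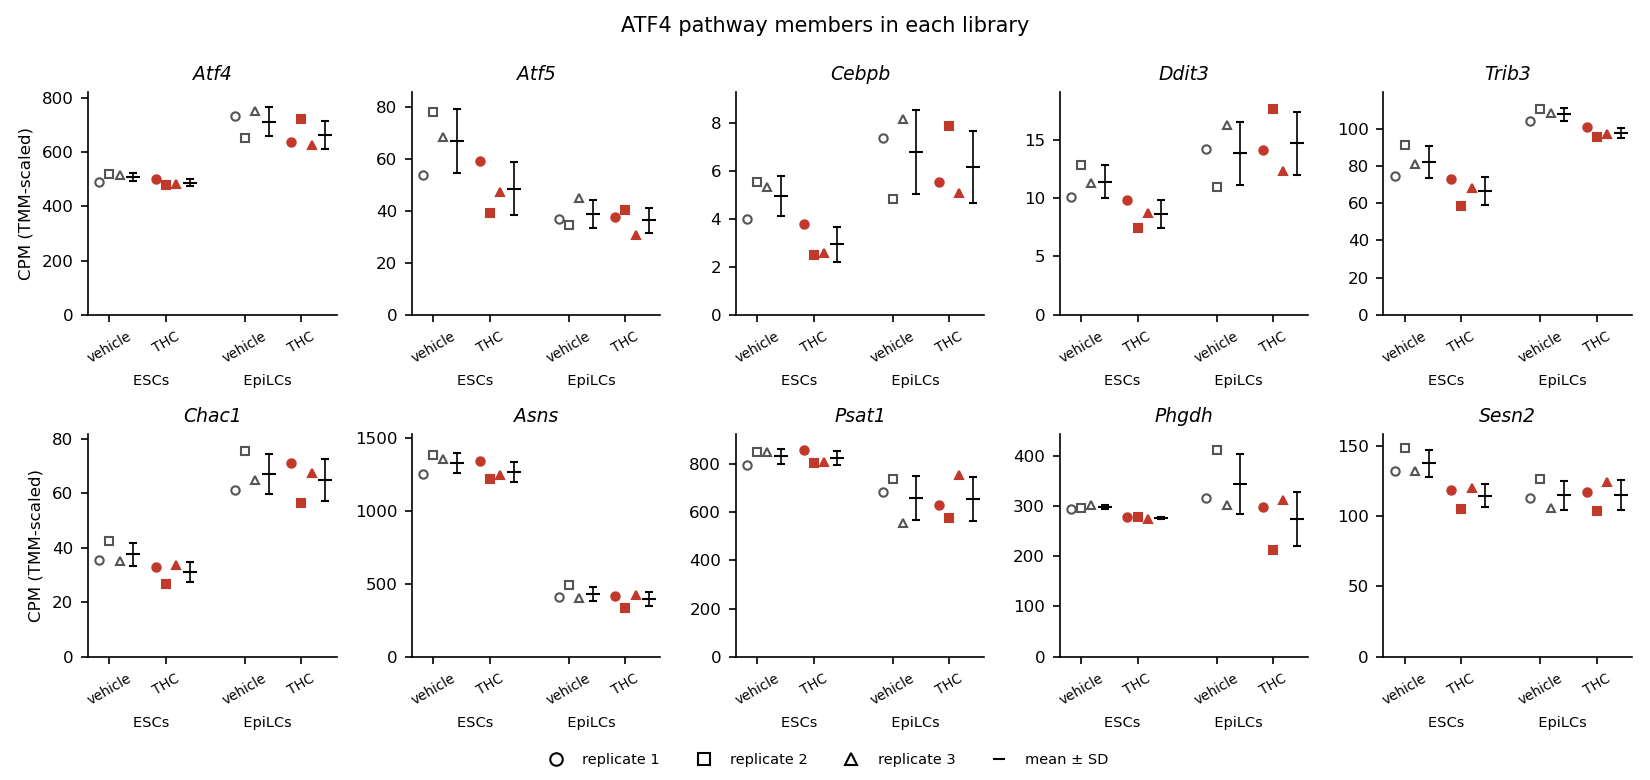
TMM-scaled CPM of the 10 genes in each of the 12 libraries, with open grey symbols for vehicle, filled red symbols for 100 nM Δ9-THC, shapes for the replicate number and black bars for the mean ± SD of 3 libraries. In ESCs the exposed libraries of Ddit3, Trib3, Chac1, Phgdh, Sesn2 and Cebpb lie below all vehicle libraries, and in EpiLCs only Trib3 is separated.

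The libraries did not vary independently of their replicate number, whereas the edgeR p-values above treat them as independent and can be too small. In ESCs, vehicle replicate 2 was the highest vehicle library for 9 of the 10 genes, and Δ9-THC replicate 2 was the lowest exposed library for 9. Vehicle replicate 1 was the lowest for 8, and Δ9-THC replicate 1 was the highest for 8. These ranks were not counted over all genes, so they are not shown to be particular to the members. Over all genes in ESCs, deviations of same-numbered libraries from their group means correlated at −0.987 to −0.977. In replicate 1 the gap between exposures was narrow for genes such as Trib3 and Ddit3, and wider in replicates 2 and 3. Left out as a pair, replicate 1 gave 4 called members of the 10, namely Atf4, Atf5, Asns and Cebpb, against 1757 of all 13104 genes. Replicate 2 or 3 left out as a pair gave 0 called members.

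The fold-changes of all genes followed the GC content of their transcripts in ESCs (Spearman rho −0.54 over 13083 genes, a description across genes and not across samples). Genes with at least 55% GC had a median log2(fold-change) of −0.11, and those under 48% GC one of 0.088. The 10 members had a median GC content of 57.3%, against 49.7% for all genes, and 7 of them were above that value. With offsets for GC content and length in the same edgeR fit, the median log2(fold-change) of the 10 was −0.16 and that of all genes 0.00070, with 9 of the 10 below 0 against 49.7% of all genes. None of the 10 was then called, against 0.0153% of all genes. Phgdh was at −0.010 (edgeR adjusted p = 0.824), and Atf4 changed sign to 0.010 (edgeR adjusted p = 0.891). Ddit3, whose transcript has 45.6% GC, was at −0.48 (edgeR adjusted p = 0.122), and Cebpb, the richest in GC at 67.2%, was at −0.50 (edgeR adjusted p = 0.246). Summed neuroectoderm markers also differed between these groups, at 93.6 to 103 CPM with vehicle and 82.3 to 90.9 CPM with Δ9-THC, with 3 of 4 listed and Pax6 without a row, and the 2 listed 2-cell-like genes summed to 2.07 to 2.74 CPM and 2.74 to 3.48 CPM. With the offsets the log2(fold-change) of Tubb3 went from −0.16 to −0.055, of Nes from −0.22 to −0.12 and of Sox1 from −0.28 to −0.18. The part of GC content and of these marker differences in the members' values was not tested beyond the offsets. A change in few cells cannot be told apart from a change in RNA per cell.

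**Figure D3:**
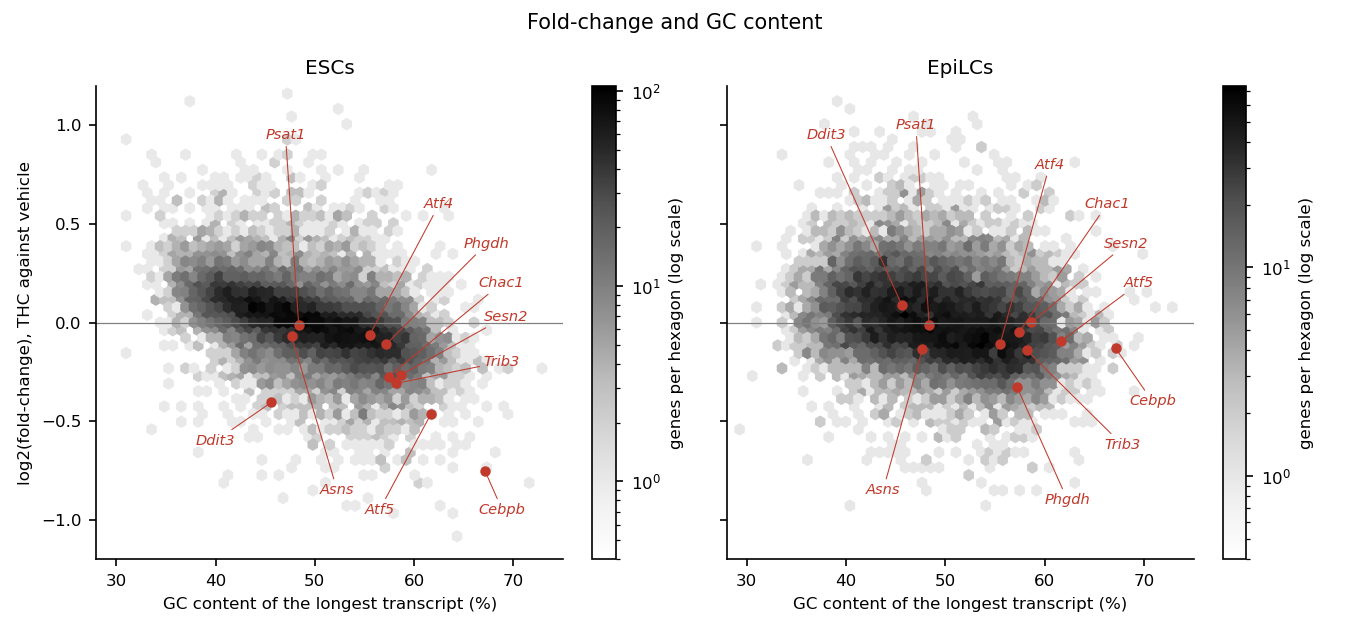
The log2(fold-change) of Δ9-THC against vehicle plotted on the GC content of each gene's longest transcript (%), with grey hexagons shaded by the number of genes on a log scale and the 10 members in red. The cloud slopes downward in ESCs (rho −0.54) and less so in EpiLCs (rho −0.30), and 5 genes in each cell type lie outside the axis and are not drawn.

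In EpiLCs, which received the same dose but through both stages, no member passed the threshold. The edgeR test called 0 of 13717 genes (percent called 0), 2069 genes or 15.1% had an unadjusted p under 0.05, and DESeq2 called 87 genes or 0.634%, none of them a member. The log2(fold-change) was below 0 for 8 of the 10 genes, against 49.3% of all genes, with a median of −0.10 against 0.0030. With the GC and length offsets it was below 0 for 7 of the 10, against 7388 of 13717 genes. The medians were then −0.025 and −0.016, so little of the lean remained. Trib3 alone had separate libraries, with 104, 111 and 109 CPM in vehicle libraries and 101, 95.5 and 97.6 CPM in exposed ones, against 10.6% of all genes in that direction. Its change of −0.14 ± 0.056 did not pass (edgeR adjusted p = 0.317).

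The other regulators overlapped between exposures in EpiLCs. Atf4 gave 735, 652 and 754 CPM with vehicle and 638, 722 and 628 CPM with Δ9-THC (log2(fold-change) −0.11 ± 0.092 SE, edgeR adjusted p = 0.622). Atf5 gave 36.6, 34.5 and 44.97 CPM against 37.7, 40.2 and 30.7 CPM (−0.094 ± 0.14). Cebpb gave 7.35, 4.81 and 8.14 CPM against 5.53, 7.87 and 5.06 CPM (−0.13 ± 0.25). In each of these 3 genes vehicle replicate 2 was the lowest of its group and Δ9-THC replicate 2 the highest, the reverse of the order in ESCs. Ddit3 showed the same arrangement, at 14.2, 10.97 and 16.3 CPM with vehicle and 14.1, 17.6 and 12.3 CPM with Δ9-THC (0.089 ± 0.19, edgeR adjusted p = 0.860).

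For the enzymes and remaining effectors the arrangement was turned around in EpiLCs, with vehicle replicate 2 the highest of its group and Δ9-THC replicate 2 the lowest. Phgdh had the largest fitted change there, with 317, 411 and 302 CPM in vehicle libraries and 299, 212 and 311 CPM in exposed ones (log2(fold-change) −0.33 ± 0.18 SE, edgeR adjusted p = 0.448). Most of this lay in replicate 2, and leaving out single libraries or replicate pairs moved the value between −0.51 and −0.031. Asns gave 407, 489 and 400.1 CPM against 417, 337 and 425 CPM (−0.14 ± 0.12). Psat1 gave 683, 737 and 556 CPM against 629, 578 and 755 CPM, with means that were nearly equal (−0.011 ± 0.14). Chac1 gave 61.2, 75.4 and 64.98 CPM with vehicle and 71.0, 56.3 and 67.5 CPM with Δ9-THC (−0.049 ± 0.12). Sesn2 gave 113, 126 and 106 CPM and 117, 104 and 124 CPM, the group means being 115 ± 10.3 and 115 ± 10.5 CPM.

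Whether the change differed between cell types was tested directly, as an interaction in a fit of the 12410 genes in both tables. None of the 10 passed, against 4 genes or 0.0322% of all, and their edgeR adjusted p-values ran from 0.342 to 0.977. The largest differences, EpiLCs minus ESCs, were 0.64 ± 0.34 for Cebpb, 0.51 ± 0.24 for Ddit3 and 0.39 ± 0.24 for Atf5 on the log2 scale. Sesn2 alone had an unadjusted p under 0.05 (0.28 ± 0.12, edgeR adjusted p = 0.342), against 8.9% of all genes in that direction. These values do not show that the cell types responded alike. EpiLCs were exposed as ESCs and again as EpiLCs, so cell type and length of exposure cannot be told apart here.

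**Figure D4:**
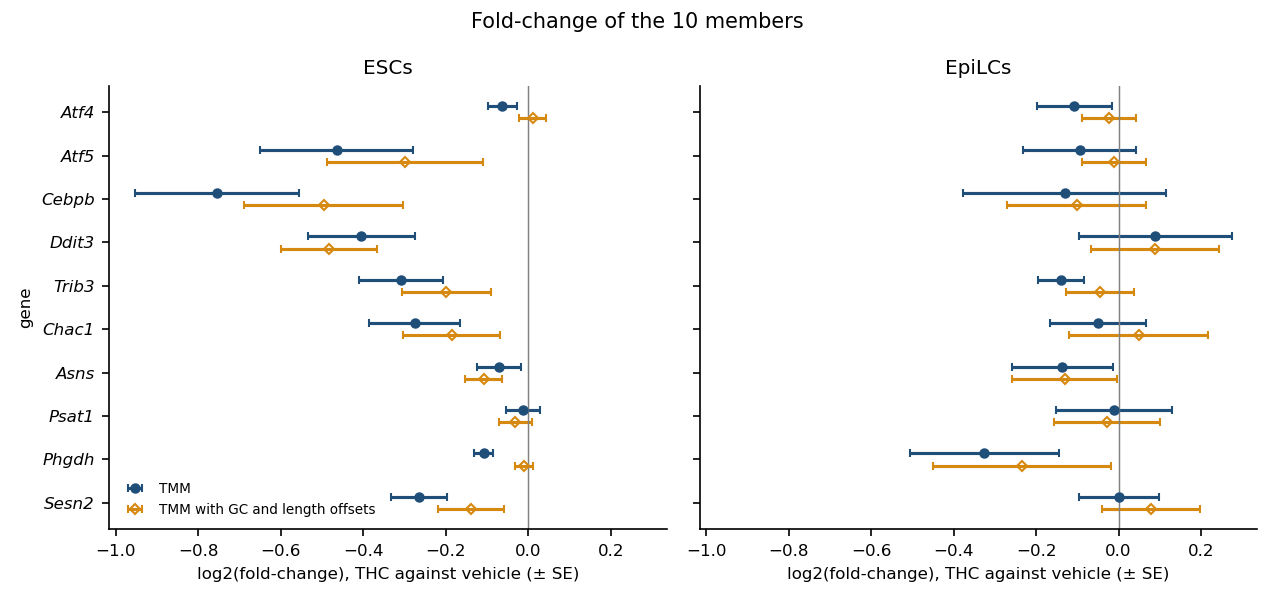
The log2(fold-change) of Δ9-THC against vehicle for each gene with its SE, from the edgeR fit with TMM scaling (filled circles) and from the fit with added offsets for GC content and length (open diamonds). In ESCs all 10 circles lie below 0 and the diamonds of most genes lie nearer to it, except for Ddit3, Asns and Psat1, and in EpiLCs the SE bars of 6 circles cross 0.

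The wider pathway was followed with 7 gene lists of 109 genes, of which 107 had a row in ESCs and 109 in EpiLCs. Upstream of Atf4, 18 genes encode the sensor kinases and their regulators, eIF2, its exchange factor eIF2B and the phosphatase subunits that reset it. In ESCs 7 were higher and 11 lower (median log2(fold-change) −0.0057) and 2 were called, against 48.9% of all genes lower and 6.91% called. Eif2s1, the gene of eIF2α, rose from 337 ± 2.77 to 371 ± 1.63 CPM (log2(fold-change) 0.14 ± 0.023 SE, edgeR adjusted p = 0.0304). Gcn1l1, the gene of the GCN2 activator GCN1, fell from 219 ± 6.98 to 195 ± 6.88 CPM (−0.17 ± 0.038, edgeR adjusted p = 0.0499). No gene of this list passed in EpiLCs, where the smallest p-values were those of the eIF2B subunits Eif2b1 (−0.19 ± 0.051) and Eif2b2 (−0.30 ± 0.082), both with an edgeR adjusted p of 0.204 and with exposed libraries all below vehicle.

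The bZIP partners and competitors of ATF4 were evenly split in ESCs, with 4 of 8 higher and 4 lower (median 0.0017) and none called. Atf3, a stress-induced repressor, stood at 10.99 ± 0.890 CPM with vehicle and 9.002 ± 0.809 CPM with Δ9-THC (log2(fold-change) −0.29 ± 0.091 SE, edgeR adjusted p = 0.0975). Cebpa was near the lower end of detection, at 1.34 ± 0.161 and 0.832 ± 0.150 CPM (−0.69 ± 0.17, edgeR adjusted p = 0.0589). In EpiLCs 4 of 9 were higher and 5 lower, and Cebpa (0.34 ± 0.20) and Creb1 (0.24 ± 0.11) had the smallest p-values without passing.

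Amino acid transporters were mostly lower in ESCs, 10 of 12 against 48.9% of all genes, with a median of −0.090 and none called. With the GC and length offsets 7 of 12 were lower (median −0.049), against 49.7% of all genes. Slc7a5, the light chain of the large neutral amino acid transporter, went from 416 ± 11.5 to 375 ± 9.997 CPM and just missed the threshold (log2(fold-change) −0.15 ± 0.033 SE, edgeR adjusted p = 0.0502). Slc43a1, another carrier of large neutral amino acids, followed (−0.29 ± 0.081, edgeR adjusted p = 0.0771). In EpiLCs 7 of 12 were lower (median −0.055), led by Slc3a2, the heavy chain partner of Slc7a5 (−0.18 ± 0.069), and the cationic amino acid transporter Slc7a3 (−0.18 ± 0.10).

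The list of serine, glycine, proline, aspartate and one-carbon synthesis had 10 of 13 genes lower in ESCs (median −0.095), against 48.9% of all genes. In that list 2 were called lower, against 3.55% of all genes. With the GC and length offsets 8 of 13 were lower (median −0.037), against 49.7% of all genes. Shmt2, which moves serine carbon into mitochondrial folate, fell from 343 ± 4.47 to 313 ± 4.67 CPM (log2(fold-change) −0.13 ± 0.025 SE, edgeR adjusted p = 0.0380). Cbs, the entry enzyme of transsulfuration, fell from 30.4 ± 2.06 to 24.0 ± 1.72 CPM (−0.34 ± 0.072, edgeR adjusted p = 0.0444). In EpiLCs 11 of 13 were lower (median −0.12), against 49.3% of all genes (median 0.0030), and none was called. With the GC and length offsets 11 of 13 were lower there (median −0.097), against 7388 of 13717 genes. Cbs had the smallest p-value there, at 13.5 ± 0.163 and 10.9 ± 0.145 CPM (−0.32 ± 0.065, edgeR adjusted p = 0.159), followed by Psph, the last enzyme of serine synthesis (−0.21 ± 0.079).

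The tRNA charging genes leaned lower in both cell types, 12 of 13 in each against 48.9% and 49.3% of all genes, with Xpot, a tRNA exporter, as the exception in each. With the GC and length offsets 11 of 13 were lower in ESCs (median −0.043) and 12 of 13 in EpiLCs (median −0.16). None was called in ESCs, where the median was −0.060 and Aars, the alanyl-tRNA synthetase, went from 983 ± 54.4 to 882 ± 49.0 CPM (log2(fold-change) −0.16 ± 0.056 SE, edgeR adjusted p = 0.128). The median in EpiLCs was −0.13, against 0.0030 for all genes, and 7 of the 13 had exposed libraries all below vehicle, against 10.6% of all genes. Sars (−0.21 ± 0.072, edgeR adjusted p = 0.267) and Yars (−0.19 ± 0.064, edgeR adjusted p = 0.244) had the smallest p-values.

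Of 20 other stress targets in ESCs 12 were lower (median −0.076), near the 48.9% of all genes, and 2 were called, both lower, against 3.55% of all genes in that direction. Bbc3, the gene of the pro-apoptotic protein PUMA, fell from 13.5 ± 1.07 to 9.05 ± 0.829 CPM (log2(fold-change) −0.59 ± 0.089 SE, edgeR adjusted p = 0.0301). Gdf15, a secreted stress cytokine, fell from 15.4 ± 0.790 to 12.01 ± 0.719 CPM (−0.36 ± 0.064, edgeR adjusted p = 0.0340). Both are also targets of p53. In EpiLCs 11 of 21 were lower (median −0.044), with Pck2, the mitochondrial PEP carboxykinase, at 275 ± 7.53 and 228 ± 7.53 CPM (−0.27 ± 0.058, edgeR adjusted p = 0.171) and Fam129a at 32.6 ± 0.488 and 37.5 ± 0.697 CPM (0.20 ± 0.054, edgeR adjusted p = 0.204).

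The IRE1 and ATF6 arms of the unfolded protein response, which do not run through eIF2α, were followed for comparison. In ESCs 13 of 23 genes were lower (median −0.0099), 1 was called higher and 1 lower, shares near the 48.9% lower and 6.91% called of all genes. Canx, the chaperone calnexin, rose from 872 ± 16.0 to 972 ± 20.97 CPM (log2(fold-change) 0.16 ± 0.029 SE, edgeR adjusted p = 0.0378), and Atf6b fell from 46.3 ± 0.874 to 38.9 ± 0.649 CPM (−0.25 ± 0.033, edgeR adjusted p = 0.0283). In EpiLCs 13 of 23 were lower as well (median −0.073), with Dnajc3 (0.27 ± 0.11) and Sdf2l1 (−0.21 ± 0.062) at the smallest p-values. With the GC and length offsets none of the genes called in these lists in ESCs passed, from Cbs (−0.33, edgeR adjusted p = 0.103) to Eif2s1 (0.012, edgeR adjusted p = 0.896). With 1 ESC library left out, 0 or 1 of all 13104 genes passed, none of them among the list genes called above. Without replicate 1 of both exposures 1757 genes passed, among them Atf6b (edgeR adjusted p = 0.0345) and Eif2s1 (edgeR adjusted p = 0.0398). The calls of the other list genes named above as risen or fallen were lost there. Aars, Atf3, Cebpa and Slc7a5, not called in the main ESC fit, each passed in 1 of 9 fits with libraries left out.

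**Figure D5:**
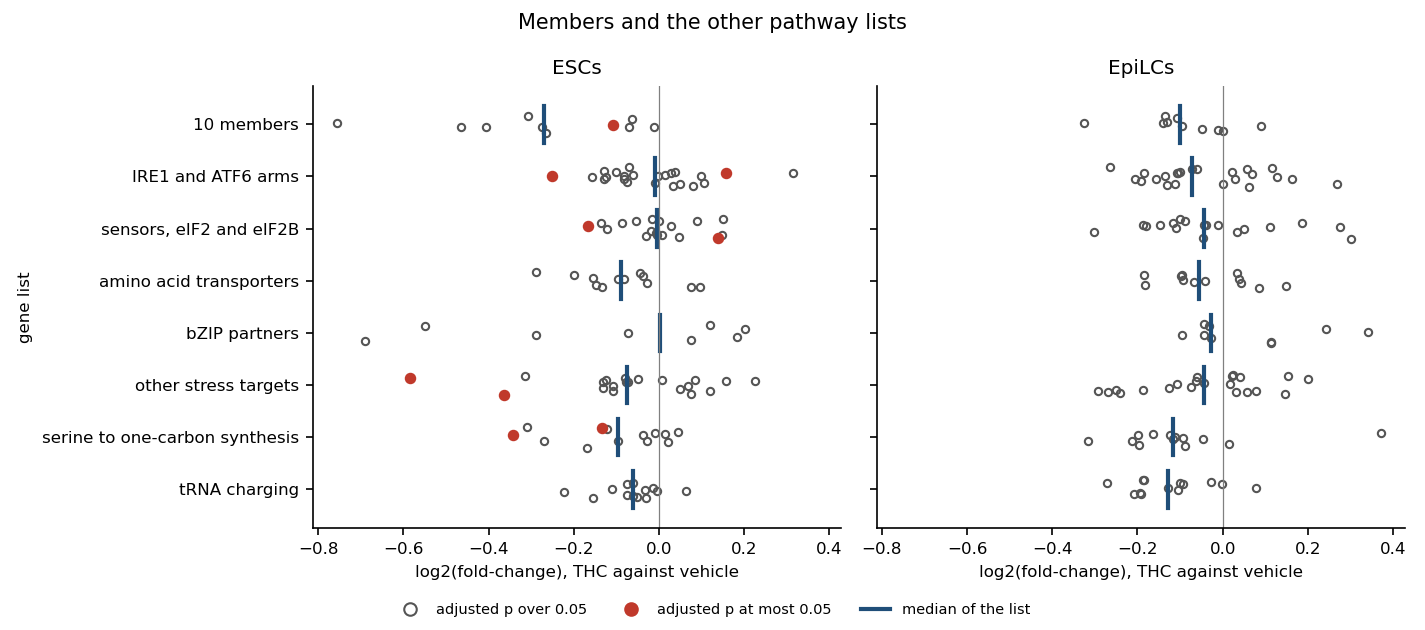
The log2(fold-change) of Δ9-THC against vehicle for every gene of the 10 members and the 7 pathway lists, with one circle per gene, filled red where the edgeR adjusted p was at most 0.05, and a blue bar at each median. The members have the lowest median in ESCs, −0.27, and no circle is red in EpiLCs.

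The pattern of Atf4 over the 12 libraries, as log2 CPM centred in each cell type, was most like that of Iscu (Pearson r = 0.991), Nfu1 (0.989), 2310039H08Rik (0.984), Aup1 (0.982) and Gng5 (0.981), of 12409 other genes. Iscu and Nfu1 both serve iron-sulfur cluster assembly in mitochondria. Among the members Cebpb (r = 0.808), Ddit3 (0.724) and Atf5 (0.676) were nearest to Atf4. They ranked only 724, 1230 and 1528 of the 12409 genes, so many genes outside the pathway lay nearer. Trib3 was at 0.405 (rank 3337), and the remaining 5 members were negative, down to −0.520 for Psat1. These points share batch-adjusted libraries of the same replicate number, so the correlations only describe how the values run together.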

How the data were processed

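Poly(A) RNA libraries of ESCs and EpiLCs exposed to 100 nM Δ9-THC or vehicle were analysed, with 3 libraries per group. The authors prepared libraries with either of 2 kits, sequenced them, kept reads that STAR aligned uniquely, counted them over exons with HTSeq (union mode, strand not used), and adjusted each cell type for batch with ComBat-seq. The submitters' processing notes name bcl2fastq 2.19.1.403, FastQC, STAR, HTSeq and DESeq2 and both mm10 and GRCm39. Which samples formed a batch is not given in the sources used here. The deposited values are whole-number counts, adjusted for batch but not scaled for depth, with totals of 23427551 to 32096698. After this adjustment the counts are no longer independent between libraries, and p-values measure only the spread between these samples. Columns of the authors' own comparisons were not used.

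A gene was kept if its counts over the libraries of a table summed to more than 10. Within each cell type, exposure was tested with edgeR 4.0.16 (R 4.3.3) by the quasi-likelihood test after TMM scaling, with Benjamini-Hochberg adjustment over all genes of the table and a threshold of 0.05. The interaction was fitted on the 12 libraries for genes in both tables. CPM used TMM-scaled library sizes, and levels per kb used the union exonic length of GENCODE M21 (GRCm38), whose GC content and gene coordinates were also used. GC content was known for 13083 of 13104 ESC genes and 13696 of 13717 EpiLC genes. Alternatives were RLE scaling, DESeq2 1.42.0, no filter, a minimum of 10 counts in each library, a replicate block, offsets fitted by natural splines with 5 degrees of freedom on GC content and length, both together, 1 fit of 12 libraries, and leaving out each library. Leaving out both libraries of a number, and 1 TMM scaling over 12 libraries, were added after the data were seen. The scripts were tested on simulated counts with 200 genes changed by 1 log2 unit. False calls were 4.02% of edgeR calls and 8.65% of DESeq2 calls in ESCs, and 7.07% and 15.84% in EpiLCs. The simulated libraries were independent and had no GC trend between exposures, so this test does not cover those features of the data.

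The members and lists were chosen with earlier results of these data known. From each list the text names the genes called in either cell type and, per cell type, the 2 with the smallest p, and the 5 genes most like Atf4. Promoter windows came from RefSeq (GRCm38.p6). The promoter stretches of 1 named gene are not reported here.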

Additional observations from a re-analysis of the deposited data

How the results depend on the processing

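In ESCs the main fit called 906 genes and 1 member. The replicate block called 5 genes and 0 members, GC and length offsets 2 and 0, the block with offsets 3 and 0, and the fit of 12 libraries 31 and 0, while DESeq2 called 3 members. Leaving out libraries gave 0 to 1757 genes and 0 to 4 members, with 0 or 1 genes when 1 library was left out and the upper ends without replicate 1 of both exposures. In EpiLCs 0 genes became 87 with DESeq2 and 411 with the fit of 12 libraries. The 4 interaction genes became 133 with DESeq2, 0 with the replicate block, 0 with offsets, and 0 to 0 when libraries were left out. The cause was not tested.

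Some small changes turned direction, each without a call. With offsets, and with the block and offsets, Atf4 in ESCs was at 0.010 and 0.010, and Chac1 in EpiLCs at 0.049 and 0.050. Sesn2 in EpiLCs was at −0.0019 with RLE scaling, −0.0019 with DESeq2 and -4.03e-05 with the fit of 12 libraries. Leaving out 1 library moved Psat1 in ESCs from −0.043 to 0.0053 and, in EpiLCs, Atf5 from −0.19 to 0.028, Cebpb from −0.36 to 0.019, Chac1 from −0.13 to 0.042, Ddit3 from −0.076 to 0.22, Psat1 from −0.13 to 0.077 and Sesn2 from −0.063 to 0.073, and moved the interaction from −0.11 to 0.047 for Asns, −0.096 to 0.015 for Atf4 and −0.094 to 0.10 for Psat1. Without replicate 1 of both exposures Psat1 was at 0.043, Sesn2 at −0.025 and Cebpb at 0.0059 in EpiLCs. Without replicate 2 of both, Psat1 was at 0.021 in ESCs, and in EpiLCs Ddit3 was at −0.22, Chac1 at 0.12, Asns at 0.050 and Psat1 at 0.15. Without replicate 3 of both, Psat1 was at 0.0097 in ESCs, and in EpiLCs Atf5 was at 0.13, Sesn2 at −0.12 and Cebpb at 0.14.

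The main fit did not use the replicate numbers as pairs, and the sources used here do not say whether they pair the samples. Same-numbered libraries mirrored each other, so libraries were not independent of their number. Deviations of same-numbered vehicle and Δ9-THC libraries from their group means correlated at −0.987 to −0.977 in ESCs and −0.985 to −0.979 in EpiLCs, and differently numbered ones at 0.369 to 0.604 and 0.223 to 0.695. The fit without the block does not take this mirroring into account, so it can understate the SE and give p-values that are too small. For Phgdh in ESCs the edgeR adjusted p was 0.0489 without the replicate block and 0.536 with it, at the same log2(fold-change) of −0.11. The SE of Phgdh was 0.024 without the block and 0.062 with it, while that of Atf5 in ESCs was 0.18 and 0.15.

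Of the 10 members Cebpb, with as few as 61 counts in a library, had the largest SE in both cell types, 0.20 in ESCs and 0.25 in EpiLCs.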
